A study of Mus musculus with 12 samples.

Results

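The comparison is between tumour stroma of mice that lack Rarb and of mice that carry the wild-type gene. Its members are the 6 arrays that the labels call tumour stroma, out of 12 arrays in the series. All tumours arose in FVB mice carrying the MMTV-Wnt1 transgene, in which a mammary tumour virus promoter drives Wnt1 mainly in mammary epithelium. The KO group holds the stroma of tumours 1, 3 and 4 from Rarb -/- mice, and the WT group the stroma of tumours 1, 2 and 3 from wild-type mice. The other 6 arrays hold the epithelium of the same tumours. Each compartment was cut from stained sections by laser capture microdissection, and the RNA was labelled with Cy3 and hybridised beside a pooled mouse reference RNA in Cy5. The loss of Rarb is not stated to be limited to a cell type. The labels give no age and do not say whether every tumour had its own mouse, and p-values then reflect only the spread between these captures.

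Rarb encodes a retinoic acid receptor, the beta form, which binds DNA with an RXR partner and changes transcription when it binds retinoic acid. Tumour stroma is a mixture of fibroblasts, which make collagens and other matrix proteins, of vessels made of endothelial cells and pericytes, and of immune cells, chiefly macrophages. A stromal capture can also take in neighbouring tumour cells, and the MMTV-driven Wnt1 transcript, the luminal keratins and the milk protein genes mark these. The comparison asked which genes of the tissue around the tumour cells differed with the Rarb genotype.

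Values are log2 ratios of tumour sample over reference, positive where the sample was brighter. Cy3 was well above background on 36.0% of probes on the KO 1 stromal array and on 40.7% to 46.3% on the other 5 stromal arrays, and no spot was saturated. Every KO array sat in one row of its slide and every WT array in the other, and row and genotype therefore cannot be told apart. In the reference channel alone, which holds the same RNA on every array, limma called 0 of 13350 genes between the KO and WT stromal arrays (0% called), with 421 at an unadjusted p under 0.05. The reference cannot show an effect of row on the Cy3 sample, so this count does not separate row from genotype.

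The stromal label was checked against fibroblast genes. The median log2 ratio of the 30 measured fibroblast genes was 2.67, 2.14 and 2.62 on KO arrays 1, 3 and 4 and 0.15, -0.41 and 0.77 on WT arrays 1, 2 and 3. Set against the epithelium of the same tumour, these genes were higher in stroma by a median of 3.89, 2.83 and 5.42 in KO tumours 1, 3 and 4, and by 1.09 and 2.95 in WT tumours 1 and 3. In WT tumour 2 the median difference was -0.91, so that its stromal capture held less fibroblast signal than its epithelial capture, against the labels. Its epithelial capture was itself unusual, with a fibroblast median of 0.06, against -1.61 to -0.61 on the other epithelial arrays. The adipocyte median of that epithelial capture was 2.20, against -0.24 to 0.72 on the others. The WT 2 stromal capture also had a median of 3.19 for the 18 T and NK cell genes, where the other 5 stromal arrays had 0.06 to 0.76. The KO 3 capture had a median of 4.02 for the 16 adipocyte genes, against 0.13 to 0.52 on the other stromal arrays, and of 4.65 for the 4 mast cell genes, against 0.09 to 1.12. Results are therefore also given without KO 3 and WT 2, an alternative chosen after these values were seen.

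**Figure D1:**
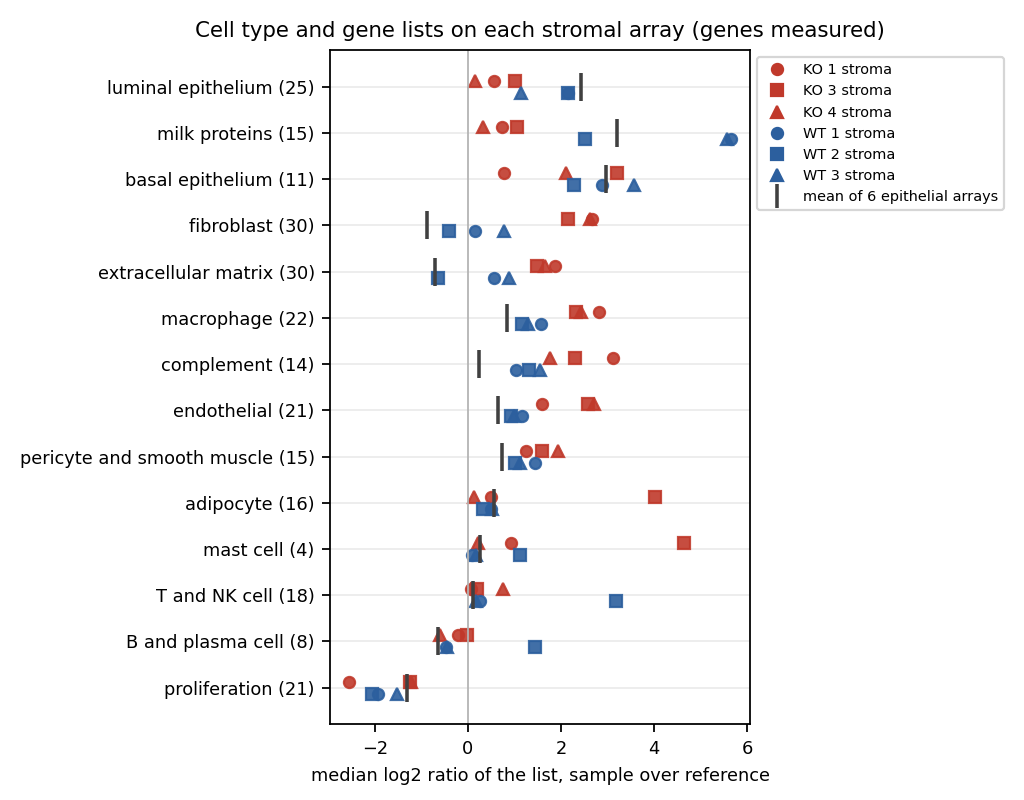
Median log2 ratio (sample over reference) of each gene list on the 3 KO (red) and 3 WT (blue) stromal arrays, with the number of measured genes in parentheses and a grey bar for the mean of the 6 epithelial arrays. The KO arrays lie to the right of the WT arrays for fibroblast, matrix, macrophage, complement and endothelial genes and to the left for luminal and milk genes, and KO 3 and WT 2 stand apart for adipocyte, mast cell and lymphocyte genes.

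The stromal captures of both genotypes held epithelial RNA, and the WT captures held more of it. The epithelial share of a capture was taken as the median, over 22 luminal genes measured on every epithelial array, of the stromal ratio divided by that of the epithelium of the same tumour. It was 23.1%, 22.7% and 22.0% for KO tumours 1, 3 and 4 and 81.5%, 69.8% and 41.4% for WT tumours 1, 2 and 3. By this measure the KO captures lay close together, at 22.6% ± 0.60 (SD, n = 3), and the WT captures were spread widely above them, at 64.2% ± 20.6 (SD, n = 3). The difference of -41.6 percentage points had an exact two-sided permutation p of 0.1, the smallest that 3 samples against 3 can give. Krt8, a keratin of luminal cells, illustrates the gap, at 12.4%, 11.9% and 17.1% of its epithelial level in the KO captures and at 132%, 269% and 175% in the WT captures. Of the 22 luminal genes, 20 had a lower mean percentage of the epithelial level in the KO than in the WT captures and 2 had a higher one.

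Shares from other genes kept every KO capture below every WT capture, but not the order or the spread among the WT captures. WT 3, the lowest WT capture at 41.4% from luminal genes, was at 78.0% with basal genes added and at 65.2% from Wnt1. Both values were above those of WT 2. With basal genes added (31 genes in all), the share was 26.0% ± 3.81 in KO and 77.7% ± 8.65 in WT. From the Wnt1 transcript alone, each WT capture held 64.3% to 72.2% of the level in its own epithelium and each KO capture 3.95% to 9.76%. In bulk captures, fewer cells of a type and less RNA per cell cannot be told apart.

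**Figure D2:**
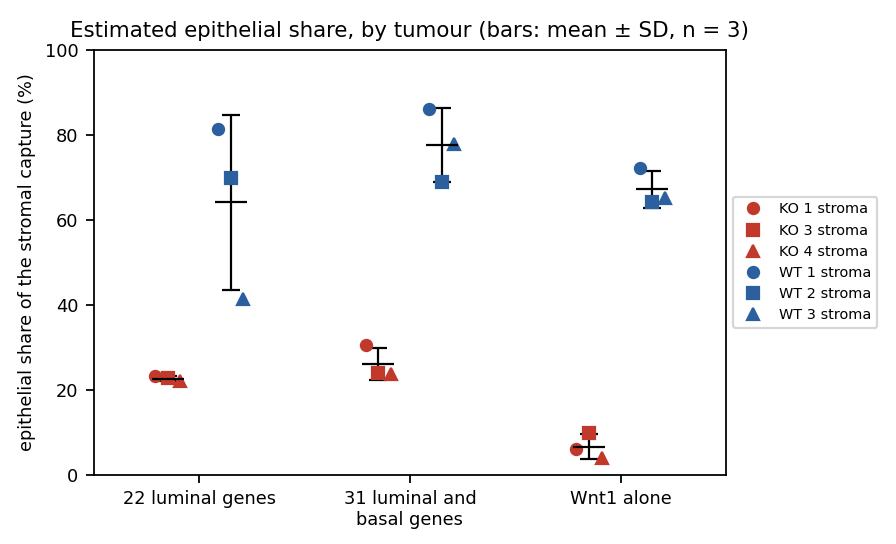
Estimated epithelial share (%) of each stromal capture from luminal genes, luminal and basal genes, or Wnt1 alone; points are tumours and bars the mean ± SD of 3 tumours. In each estimate the 3 KO captures lie below the 3 WT captures.

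The targeted gene did not separate the groups. Rarb had log2 ratios of 1.83, 2.09 and 0.57 on KO stromal arrays 1, 3 and 4 and of -0.01, -0.29 and 1.37 on WT arrays 1, 2 and 3. The groups overlapped, since KO 4 lay below WT 3 (log2 fold change 1.14, SE 0.71, limma adjusted p = 0.402). No source used here places the probe inside or outside the deletion, and its values check nothing about the genotype labels. The retinoid link of this gene can be read in its promoter. Of 10594 measured genes with a RefSeq promoter window of 300 bases (250 before and 50 after the start, GRCm38.p6), Rarb was 1 of 5 that hold a direct repeat of the retinoid half-site with 5 bases between the repeats, known as DR5, on either strand. Among all 32851 windows the share with a DR5 was 0.0974%. The window lies at chr14:16575427-16575726 on the minus strand, and its DR5 is printed in capitals, from 53 to 37 bases before the start.

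Rarb promoter: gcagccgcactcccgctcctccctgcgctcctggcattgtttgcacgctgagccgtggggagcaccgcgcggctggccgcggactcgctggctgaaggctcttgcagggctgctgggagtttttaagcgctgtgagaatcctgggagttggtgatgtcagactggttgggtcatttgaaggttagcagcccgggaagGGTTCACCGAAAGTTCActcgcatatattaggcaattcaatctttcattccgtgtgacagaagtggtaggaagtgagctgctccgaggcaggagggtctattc

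The same search found a DR5 in 0 of 378 promoters of genes that rose in KO stroma and in 0 of 303 of genes that fell, which says only that these letters are not in those windows. Among the retinoid pathway genes 1 passed the test. Of 23 measured, 1 fell and none rose, where 2.93% of all genes tested fell and 3.52% rose. The median log2 fold change was 0.21, against -0.01 over all genes tested. The gene that fell was Crabp2, which encodes a carrier that hands retinoic acid to its receptors, with log2 ratios of 1.89, 1.86 and 1.11 in KO and 4.52, 3.77 and 3.80 in WT stroma. It stood at 4.13 in KO and 4.16 in WT epithelium (means of 3 arrays each), so that WT stroma was near the epithelial level and KO stroma below it (log2 fold change -2.41, SE 0.28, limma adjusted p = 0.00399). The other receptors had fold changes of 0.31 for Rara and 0.16 for Rarg on the log2 scale. Cyp26b1, which breaks down retinoic acid, had 0.27, and Aldh1a2, which makes it, had 1.17. None of these 4 passed the test, and each had the opposite sign in at least 1 alternative, such as -0.16 for Rara without KO 3 and WT 2 and -0.17 for Aldh1a2 with the luminal mean as a covariate.

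Across all genes, 861 of 13350 differed between KO and WT stroma at an adjusted p under 0.05 (limma with Benjamini-Hochberg adjustment), which is 6.45%. The 470 that rose were 3.52% of genes tested and the 391 that fell 2.93%. Counts of called genes in each list below are to be read beside these shares, and no list was tested as a set. Many calls did not hold with 1 array fewer: 149 genes, 52 higher and 97 lower, were called whichever of the 6 stromal arrays was left out. A smaller fit is also less precise, so a lost call does not show that it rested on the array left out. Leaving out WT 1, the capture with the highest epithelial share, left 175 calls, and the other arrays left 314 without KO 1, 514 without KO 3, 581 without KO 4, 353 without WT 2 and 885 without WT 3. Without both KO 3 and WT 2, 65 genes rose and 145 fell. A fit of the 6 stromal arrays alone called 294. Of 86 called genes named here, 35 were among those called whichever array was left out, and a gene below is one of them only where this is said.

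The epithelial arrays were read beside the calls. They do not enter the KO minus WT difference, but they enter its estimate of spread and the filter on probes. Their levels are therefore no independent check of the calls. Genes that fell in KO stroma had a median log2 ratio of 1.81 in tumour epithelium, and 387 of 391 were above background on all 6 epithelial arrays. Genes that rose had a median of -0.54 there, and 358 of 470 (76.2%) were above background on all 6, which is near the 78.4% over all genes tested. The median over all genes tested was 0.02. Their KO minus WT difference in epithelium itself had a median of -0.03 for the falls and 0.12 for the rises, against 0.03 for all genes.

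**Figure D3:**
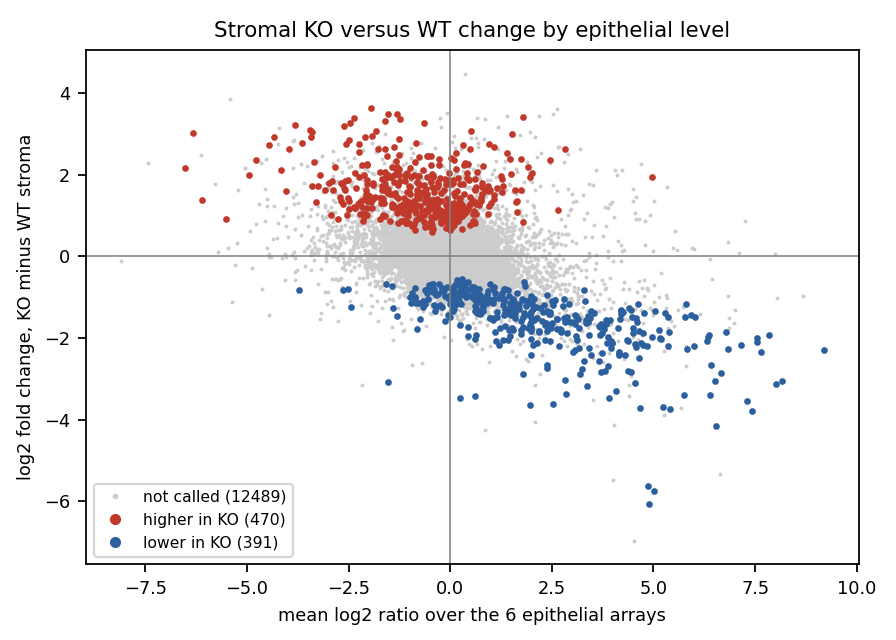
Log2 fold change between KO and WT stroma (y axis) against the mean log2 ratio over the 6 epithelial arrays (x axis), 1 point per gene, with the 470 genes higher and 391 lower in KO stroma coloured. The falls lie mostly at high epithelial levels (median 1.81) and the rises mostly below 0 (median -0.54).

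Of 25 luminal epithelial genes measured, 10 fell and none rose, 5 had positive differences, and the median log2 fold change was -1.25. In the 6 stromal arrays alone 4 of them fell, and 3 fell without KO 3 and WT 2, with a median of -1.36. Elf5 and Cldn3 were called whichever stromal array was left out. Elf5, a transcription factor of milk-producing alveolar cells, had log2 ratios of 4.92, 5.11 and 3.62 in KO and 8.51, 7.27 and 7.01 in WT stroma (log2 fold change -3.04, SE 0.48, limma adjusted p = 0.00869). The tight junction gene Cldn3 had 4.56, 4.58 and 3.45 in KO and 7.02, 6.32 and 6.27 in WT (-2.34, SE 0.31, limma adjusted p = 0.00581). Groups did not overlap for either gene. Gata3, a master regulator of luminal fate, had a log2 fold change of -1.85 and the vesicle transport gene Rab25 -2.34. None of the 11 basal genes was called, and their median was -0.33. That median ran from -0.83 without KO 3 to -0.14 without KO 1 and was -0.94 without both KO 3 and WT 2. The hemidesmosome collagen gene Col17a1 (-0.86, limma adjusted p = 0.279) and the keratin gene Krt17 (-0.83, adjusted p = 0.289) had the smallest p.

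Milk protein genes had the lowest median of the lists. Of 15 measured, 4 fell and 1 rose, with a median of -3.07, and 3 fell and none rose without KO 3 and WT 2. Lalba, a subunit of lactose synthase, had log2 ratios of 0.72, 2.71 and 1.47 in KO and 8.84, 6.25 and 7.10 in WT stroma (log2 fold change -5.76, SE 1.11, limma adjusted p = 0.0174; 0.0631 without KO 1 and 0.0736 without WT 1). Whey acidic protein, Wap, had 2.42, 0.26 and 0.62 in KO and 8.98, 4.22 and 7.01 in WT. The siderophore-binding gene Lcn2 varied least, at 3.76, 3.62 and 3.55 in KO and 5.65, 5.75 and 5.56 in WT. The butyrophilin gene Btn1a1 was the 1 that rose, from between 0.25 and 0.41 in WT to between 1.05 and 1.74 in KO.

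The transgene and several Wnt pathway genes were lower. Wnt1 had log2 ratios of 3.01, 3.80 and 2.90 in KO and 7.20, 6.60 and 6.53 in WT stroma, with no overlap. Of 27 Wnt pathway genes 5 fell and none rose, while the median was 0.03. Only 2 of them fell without KO 3 and WT 2. Rnf43, a ligase that removes Wnt receptors from the surface, stood at 0.20, 0.13 and 0.27 in KO and at 1.84, 1.80 and 2.26 in WT (log2 fold change -1.77, SE 0.23, limma adjusted p = 0.00538). The progenitor transcription factor gene Sox9 (-1.57), the proliferation regulator Myc (-1.59) and the cyclin gene Ccnd1 (-1.03) were the others. Sox9 was above background on 1 and Myc on 2 of 3 KO arrays.

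Wnt5b, a non-canonical Wnt ligand counted among the mesenchymal genes below and not among these 27, had the smallest p of all genes tested. It stood at 3.03, 3.64 and 3.38 in KO and at 6.62, 6.54 and 6.05 in WT stroma (log2 fold change -3.05, SE 0.22, limma adjusted p = 0.00058). Both epithelia had a like level, 6.39 in KO and 6.64 in WT, so WT stroma was near the epithelium and KO stroma well below it. Other falls called in every fit that left out 1 stromal array had the same layout. Foxi1, a forkhead transcription factor, had 3.50, 4.16 and 4.13 in KO and 8.65, 7.30 and 7.20 in WT stroma, beside 7.03 and 7.80 in KO and WT epithelium. The gap junction gene Gjb2 had a log2 fold change of -3.40, the chloride channel gene Clic6 -3.74 and the peptide hormone receptor gene Vipr1 -3.39 (-0.30 with a second probe). The myoglobin gene Mb had -3.72 and was above background on 2 of 3 KO arrays. Sox10, placed in the Schwann cell list, had -2.10 and stood at 7.49 and 7.62 in KO and WT epithelium.

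In 22 of the 391 falls, every WT stromal capture was higher than the epithelium of its own tumour. This group was chosen after its values were seen. The same count was not made over all genes tested, so the 22 are a description and no result about the falls. Lalba and Krt8 belong to it, as do the chitinase-like gene Chil1, the clusterin gene Clu, the tetraspanin gene Tspan8 and the osteopontin gene Spp1. Tspan8 had log2 ratios of -1.63, -1.28 and -1.69 in KO and 2.85, 1.28 and 1.70 in WT stroma, beside means of -0.33 and 0.81 in KO and WT epithelium. Spp1 had -2.26, -2.35 and -2.51 in KO and 1.71, 0.13 and 0.27 in WT stroma, beside -2.08 and -0.98 in the epithelia. In KO stroma Tspan8 and Spp1 were each above background on 1 of 3 arrays.

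**Figure D4:**
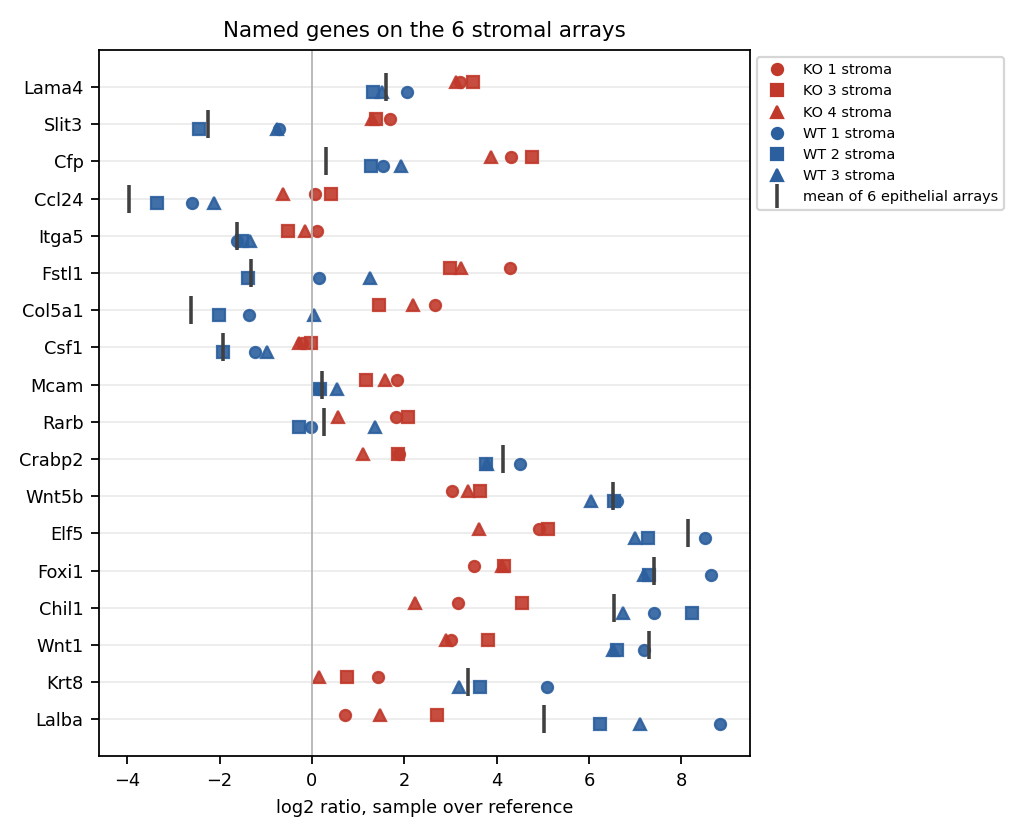
Log2 ratio (sample over reference) of 18 genes on the 3 KO (red) and 3 WT (blue) stromal arrays, with the mean of the 6 epithelial arrays as a grey bar. Each gene has KO and WT points apart except Rarb. For falls such as Wnt5b and Crabp2 the WT points lie near the epithelial bar, while for Lalba they lie above it.

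Fibroblast genes were higher in KO stroma. Of 30 measured, 7 rose and none fell, all 30 differences were positive, and the median log2 fold change was 2.35. KO and WT arrays did not overlap for 22 of the 30, while 26.3% of all genes tested had such groups. Fstl1, a secreted matrix-associated glycoprotein, stood at 4.30, 2.99 and 3.22 in KO and at 0.15, -1.38 and 1.26 in WT (log2 fold change 3.49, SE 0.66, limma adjusted p = 0.017; 0.0603 without KO 1 and 0.0610 without WT 1). The fibroblast and pericyte surface gene Cd248 had 4.24, 3.49 and 3.43 in KO and 0.68, -1.19 and 1.81 in WT. Fap, a protease of tumour fibroblasts, had 5.25, 5.41 and 5.51 in KO and 2.47, 1.68 and 3.98 in WT. WT 2 was the lowest and WT 3 the highest of the WT arrays for each of these genes. The abundant collagens pointed the same way without passing, with log2 fold changes of 2.60 for Col1a1 (limma adjusted p = 0.25) and 2.78 for Col3a1 (adjusted p = 0.233). Without KO 3 and WT 2 the list median was 2.16, and 1 of the 30 rose.

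Of 30 matrix genes beyond the fibroblast list, 6 rose and none fell, with a median of 1.21. Lama4, a laminin chain of vessel basement membranes, stood at 3.20, 3.50 and 3.11 in KO and at 2.06, 1.33 and 1.51 in WT, and was called whichever stromal array was left out (log2 fold change 1.64, SE 0.27, limma adjusted p = 0.0102). The elastic fibre gene Emilin2 had 3.65, the basement membrane linker gene Nid1 2.96 (0.84 with a second probe), the protease inhibitor gene Timp1 2.94, the crosslinking enzyme gene Loxl1 2.76 (1.01 with a second probe) and the fibrillin gene Fbn1 2.47. Fibronectin, Fn1, had a log2 fold change of 3.86 and did not pass (SE 1.13, limma adjusted p = 0.0699). No gene of the matrix list was called without KO 3 and WT 2, where the median was 1.08.

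Among genes of the mesenchymal state, 3 of 17 rose and 1 fell, with a median of 0.91. The integrin gene Itga5, which encodes a chain of the fibronectin receptor, stood at 0.12, -0.52 and -0.16 in KO and at -1.62, -1.51 and -1.33 in WT (log2 fold change 1.30, SE 0.19, limma adjusted p = 0.0069). The intermediate filament gene Vim had 2.92 and the mesenchymal transcription factor gene Prrx1 1.20. The gene of this list that fell was Wnt5b, and of the 4 only Itga5 and Wnt5b were called whichever stromal array was left out.

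Of 22 macrophage genes 5 rose and 1 fell, with a median of 1.45 and array medians of 2.31 to 2.81 in KO and 1.17 to 1.56 in WT. The folate receptor gene Folr2 of resident macrophages stood at 6.38, 6.68 and 3.93 in KO and at 3.11, 1.12 and 2.49 in WT (log2 fold change 3.42, SE 0.79, limma adjusted p = 0.0318). Leaving out any array but KO 4 took its limma adjusted p to between 0.0528 and 0.106. Fcer1g, the signalling chain of Fc receptors, had 2.20, the complement subunit gene C1qc 1.96, the receptor gene Fcgr3 1.49 and Aif1 1.14. The endotoxin co-receptor gene Cd14 fell, with -1.15, and its epithelial means were 1.35 and 1.59 in KO and WT. None of the 22 was called without KO 3 and WT 2, where the median was 1.24.

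Of 14 complement genes 2 rose, with a median of 1.54, and both were called whichever stromal array was left out. None of the 14 was called without both KO 3 and WT 2, where the median was 1.23. Properdin, Cfp, which stabilises the alternative pathway convertase, stood at 4.32, 4.76 and 3.87 in KO and at 1.54, 1.27 and 1.93 in WT (log2 fold change 2.74, SE 0.45, limma adjusted p = 0.0102). The anaphylatoxin receptor gene C5ar1 had 1.41, 1.22 and 0.72 in KO and 0.18, -0.32 and 0.07 in WT. It was above background on none of the 6 epithelial arrays and on 2 of 3 WT stromal arrays.

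Of 22 chemokine and cytokine genes 3 rose and none fell, with a median of 0.19. None was called in the 6 stromal arrays alone or without KO 3 and WT 2, and the median was 0.82 in the latter fit. They were Ccl9 (3.49) and Ccl7 (1.72), which attract myeloid cells, and Csf1 (1.20), the macrophage growth factor, for which 2 further probes gave 1.14 and 1.40. Ccl24, an eosinophil chemokine outside this list made by macrophages, stood at 0.07, 0.42 and -0.63 in KO and at -2.59, -3.35 and -2.12 in WT (log2 fold change 2.64, SE 0.39, limma adjusted p = 0.00688). Of 17 interferon response genes 2 rose, Stat2 (1.21) and Gbp2 (0.94), neither of them called without KO 3 and WT 2, and the array medians were 0.35 to 0.65 in KO and -0.58 to -0.35 in WT.

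Of 21 endothelial genes 2 rose, where 3.52% of all genes tested rose, and 20 were positive. Groups did not overlap for 11 of the 21, against 26.3% of all genes tested. The median was 1.32, and 0.74 with none called without KO 3 and WT 2. Sox18, a transcription factor of endothelial cells, stood at 2.18, 3.06 and 2.72 in KO and at 1.80, 0.93 and 1.25 in WT (log2 fold change 1.32, SE 0.27, limma adjusted p = 0.0218; 0.0550 to 0.0701 without KO 3, KO 4 or WT 2). Cd34, a sialomucin of endothelium and stromal progenitors, had 3.28 (1.19 with a second probe). Of 15 pericyte and smooth muscle genes 1 rose, with a median of 0.11. It was the adhesion gene Mcam (1.24, and 0.15 with a second probe), while the smooth muscle actin gene Acta2 had -0.58 (limma adjusted p = 0.493).

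Signalling lists had medians near that of all genes. Of 29 TGF-beta and BMP genes 2 rose, the procollagen protease gene Bmp1 (2.43, and 2.30 and 0.45 with other probes) and the latent TGF-beta binding gene Ltbp4 (1.82, and 1.17 with a second probe), and the median was 0.00. Of 24 growth factor genes 3 rose and 1 fell, with a median of 0.03. The stromal growth factors Igf1 (2.47, with 2.58, 2.24 and 0.08 from other probes) and Fgf7 (1.61) and the binding protein Igfbp4 (1.41) rose. Igfbp5, another binding protein, fell by 1.99 and stood at 7.34 and 7.77 in KO and WT epithelium. No gene of either list was called without KO 3 and WT 2. None of 21 proliferation genes was called, and their median was 0.05.

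Several of the rises called without any 1 stromal array lie outside the lists. The axon guidance ligand gene Slit3 stood at 1.68, 1.39 and 1.31 in KO and at -0.72, -2.44 and -0.76 in WT (log2 fold change 2.77, SE 0.47, limma adjusted p = 0.0119). Ddr2, a collagen receptor, had -1.05, -1.49 and -1.52 in KO and -3.41, -3.99 and -3.04 in WT. For both genes every KO array was above every WT array. Ltc4s, which makes leukotriene C4, had a log2 fold change of 2.55, the secreted factor gene Metrnl 2.57, the lysosomal protease gene Lgmn 2.47, the scavenger receptor gene Scara3 2.49 and the lectin receptor gene Clec4d 2.36. Meg3, an imprinted long noncoding RNA, had 3.07 with its brightest probe and 0.85 with another.

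Separating epithelial content from the genes of stroma was done in several ways. If a gene had no epithelial signal at all, the luminal shares alone would lower it in WT against KO captures by 1.27 on the log2 scale, the luminal and basal shares by 1.80 and the Wnt1 shares by 1.52. The fibroblast median of 2.35 lay above all of these values, and 22 of 30 fibroblast genes lay above the largest. The medians of macrophage (1.45), complement (1.54), endothelial (1.32) and matrix genes (1.21) lay between or below them, and that of pericyte and smooth muscle genes (0.11) below all. All of these numbers include WT 2, whose stromal capture held less fibroblast signal than its epithelial capture. Without WT 2 the fibroblast median was 1.91, and the 1.27, 1.80 and 1.52 were not recalculated for that case. Of the 470 rises, 279 exceeded 1.27 and 131 exceeded 1.80. This calculation was chosen after the data were seen and carries no test.

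Subtracting the epithelial part left no gene called. For each tumour, its luminal share times its epithelial ratio was taken from the stromal ratio and the remainder scaled up, which gave a value on all 6 arrays for 8920 genes. Limma called 0 of them (0% in either direction), with 781 at an unadjusted p under 0.05 and a smallest adjusted p of 0.139. The 4430 genes without a value were at or below the subtracted signal, or not measured, on at least 1 array, most often WT 1 (2805 genes) or WT 2 (2028 genes). This fit had 4 residual degrees of freedom, against 8 in the first comparison, and WT 1 was scaled up from a remaining 18.5%. Its 0 calls therefore do not show that the differences were gone. Of the 470 rises 359 had a remainder, all of them positive, with a median of 1.21. Of the 391 falls 129 had one, 127 of them negative, with a median of -1.53. The subtraction uses the arrays of the first comparison and adds no independent support to it. Tspan8 (-5.84), Spp1 (-4.35), Lcn2 (-4.26), the Notch target gene Hey1 (-2.85) and Susd4 (-3.64) remained negative, none of them called.

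Among fibroblast genes 7 of 30 had a remainder. WT 2 gave no remainder for 21 of the 30, WT 1 for 2 and WT 3 for 1. A remainder existed for 14 of 22 macrophage, 9 of 14 complement, 15 of 30 matrix, 8 of 21 endothelial and 7 of 15 pericyte and smooth muscle genes. Whether a gene had one depended on how low its WT stromal signal was, so medians over these genes cannot be set beside those of the full lists. With the luminal mean of each array as a covariate, limma called 0 of 13350 genes, and 1151 had an unadjusted p under 0.05. The luminal list medians ran from 0.15 to 1.02 on KO and from 1.14 to 2.15 on WT stromal arrays, without overlap. A fit with this covariate can therefore hardly tell genotype from luminal level, and its 0 calls decide nothing. The fibroblast median was 2.04, the macrophage median 1.31, the complement median 2.25 and the luminal median -0.17 in that fit.

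**Figure D5:**
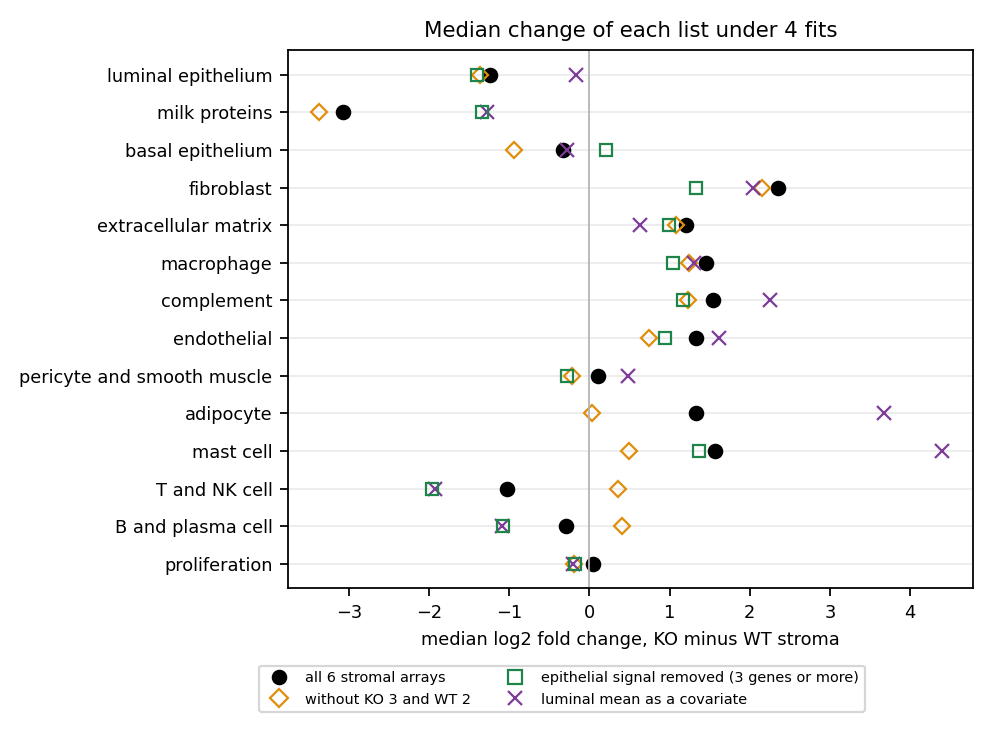
Median log2 fold change between KO and WT stroma for each list with all 6 stromal arrays (black), without KO 3 and WT 2 (orange), after removal of the epithelial signal (green, over the genes that kept a remainder only) and with the luminal mean as a covariate (purple). Fibroblast genes lie at 2.35, 2.16, 1.32 and 2.04, whereas adipocyte and T and NK cell genes move across or close to 0 without KO 3 and WT 2.

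Each array was also centred on its fibroblast median. This moved all genes down together in KO against WT, to a median of -2.32, and limma called 12483 genes lower (93.5%) and 4 higher (0.03%). The lower calls follow from that shift and are no result about single genes. Centred instead on the 10 genes detected on all stromal and no epithelial arrays, 503 genes were lower and 307 higher. Those 10, among them Olfr117, Olfr1459 and Hes2, were taken by detection alone and not as stromal markers. The median over all genes in that fit was -0.16. The 4 higher after fibroblast centring were Emilin2 (1.34), Fstl1 (1.18), Fn1 (1.55) and Amy1 (2.18). Emilin2 and Fstl1 were also called before centring. With tumour as a random block no gene was higher after centring, and 1 was in the fit of processed signals and 1 in that of probes above background on all 12 arrays. Fstl1 is itself a member of the list used for centring. The salivary amylase gene Amy1 stood at 10.68, 3.87 and 0.04 on KO arrays 1, 3 and 4 and at 0.07 to 0.80 in WT, so its value came from KO 1 and KO 3 (limma adjusted p = 0.215 before centring).

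The KO effect in stroma was also set against the KO effect in epithelium, with tumour as a block. None of 13350 genes passed (0% called, limma), and 2417 had an unadjusted p under 0.05. For Wnt5b the KO minus WT difference was -3.05 in stroma and -0.25 in epithelium, and the difference of -2.80 between them did not pass (limma adjusted p = 0.0551). Without WT tumour 3, 144 genes passed, and without the tumour block 50 did.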

How the data were processed

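The 12 deposited scanner files give, per the file headers, median spot and local background intensity in both channels, with Cy5 over Cy3 as a log10 ratio, from a 2-colour scan. Per the labels, the sample was in Cy3 and the reference in Cy5, with no dye swap. How the authors made the log2 values of the deposited value table is not stated. Its stromal columns correlated with their own arrays at no more than 0.0033 in size, with medians of -0.01 to 0.05, so their row order, scale and direction are unknown and they were not used. Each epithelial column ran as reference over sample, opposite to the direction used here (r of -0.92 to -0.89 across spots).

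Median signals were corrected with normexp (offset 50) and loess within each array in limma 3.58.1 (R 4.3.3), control spots at weight 0, and turned to sample over reference. Of 55681 probes 27235 were named through RefSeq accessions, giving 20660 genes. Probes with Cy3 clearly above background on 3 or more of the 12 arrays were retained and the brightest of each gene was used, leaving 13350 genes. Differences were tested with lmFit and eBayes on the 4 group means over 12 arrays (8 residual degrees of freedom). Benjamini-Hochberg adjustment and a threshold of 0.05 were used throughout. After removal of the epithelial signal, the test used the KO and WT groups of the 6 stromal arrays alone (4 residual degrees of freedom). The difference between compartments used tumour as a block. Tumours pair the compartments by number in the titles (correlation of deviations from group means 0.09 to 0.45), but replicate numbers of KO and WT stroma do not pair (0.04 and -0.06). The scripts were tested on simulated data.

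The genes and lists were chosen with earlier results of these data known. Genes named were Rarb and Wnt1, the 10 largest rises and falls called whichever of the 6 stromal arrays was left out, the largest called also relative to fibroblast genes, and up to 4 called members of each list each way, or, for lists without a call, the 2 of smallest p. A few genes of the rule are not described. A few others, among them Krt8 shares, Acta2, Tspan8 and the retinoid enzymes, were named after their values were seen.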

Additional observations from a re-analysis of the deposited data

How the results depend on the processing

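The number of genes called between KO and WT stroma was within 1.5 times 861 under 10 of 12 other processing or model choices, among them 633 with Agilent's processed signals (288 higher and 345 lower), 825 with tumour as a random replicate block and 687 with replicate number as a fixed replicate block. It was 294 in the 6 stromal arrays alone, 0 with the luminal mean as a covariate and 210 without KO 3 and WT 2, and between 175 and 885 with 1 array left out. No called gene named here changed direction where it could be fitted. Among uncalled genes, Rara had -0.16 without KO 3 and WT 2, and Rarg had -0.45, Cyp26b1 -0.082 and Aldh1a2 -0.17 with the covariate. With 1 array left out, Rarg ranged from -0.070 to 0.51 and Cyp26b1 from -0.16 to 0.78, and Rara reached 0.55.

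Relative to fibroblast genes, 12487 genes were called, between 11776 and 12555 with 1 array left out, 19896 with no filter on dim probes and 810 when centred on genes found on all stromal and no epithelial arrays. Of these 4 were higher, against 1 with processed signals, 18 with no filter and 1 and 2 with the filters on 12 and on stromal arrays. The number higher was 10 in the stromal arrays alone, 0 with the random replicate block, 20 with the fixed replicate block and 26 with array weights. It was 33 when centred on fibroblast and matrix genes and 307 when centred on the genes found on all stromal and no epithelial arrays. With 1 array left out it was 1 to 22. The causes were not tested. After removal of epithelial signal and in the reference channel the count was 0 under every alternative. The difference of KO effects between compartments gave 0 calls with the tumour block, 50 with no replicate block and 0 to 144 with 1 tumour left out. The difference in epithelial share was -51.6 points with luminal and basal genes, -60.6 with Wnt1 and -41.04 with processed signals, and -53.01 to -32.97 with 1 tumour left out. The number of arrays limits every value. The falls numbered 104 without WT 1 and 173 without KO 1.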

Other observations

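Of 36 ribosomal protein genes 3 fell and 35 were negative, with a median log2 fold change of -0.58. Rpl4 stood at -1.22, -1.01 and -0.91 in KO and at -0.14, 0.12 and -0.16 in WT (log2 fold change -0.98, SE 0.17, limma adjusted p = 0.014; 0.0780 without KO 3 and WT 2). Of 21 respiratory chain genes 3 fell, with a median of -0.28. In the 6 stromal arrays alone none of either list was called, and without KO 3 and WT 2 none of the ribosomal (median -0.34) and 1 of the respiratory genes was. The 3 were Sdha (-0.79), a subunit of succinate dehydrogenase, Uqcrfs1 (-0.68) of complex III and Atp5a1 (-0.73) of the ATP synthase. In epithelium the medians of the KO minus WT difference were 0.02 for ribosomal and 0.11 for respiratory genes.

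Of 17 hypoxia and stress genes 2 rose and 1 fell, and none was called without KO 3 and WT 2. Haem oxygenase, Hmox1, stood at 2.67, 2.81 and -0.08 in KO and at -1.63, -2.22 and -0.90 in WT with its brightest probe, whose log2 fold change was 3.39, against 0.13 with another probe. The vasodilator peptide gene Adm had 1.46, and the glucose transporter gene Slc2a1 fell by 1.25. Among 15 immediate early genes Klf6 was called, with 1.20. The 7 red cell genes were all positive, with a median of 1.37, and none was called, and Epor had the smallest p (2.02, limma adjusted p = 0.0535).

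None of the 10 genes above background on all 6 stromal and on no epithelial array was called, and their log2 fold changes ran from -0.20 to 0.52. Susd4, a complement-regulating membrane gene, was not well above background on any KO stromal array and was at least 3.65-fold lower there than in WT, where the bound comes from Cy3 signals scaled by loess and Aquantile and may carry dye bias.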
